A study of Saccharomyces cerevisiae with 3 samples.

Results

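The features described here are the stretches of intergenic array named for nuclear tRNA genes of the budding yeast families whose genes carry introns. They were chosen by name alone: a feature was taken if its identifier names one of the 10 tRNA families with introns, written by amino acid letter and anticodon, such as tF(GAA) for the phenylalanine family. The rule took 56 of 6399 features, which name 54 genes in 9 families and serve 8 amino acids. The family tS(CGA) matched 0 features and has no value below. There are 10 features each of tF(GAA), tL(CAA) and tP(UGG), 8 of tY(GUA), 6 of tW(CCA), 5 of tK(UUU), 3 of tS(GCU), and 2 each of tL(UAG) and tI(UAU). Each of the 56 features had a value in all 3 conditions, so none was lost to a filter. The comparison set is the other 194 tRNA-named features, of families without introns, of which 189 had a value in every condition.

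The study followed Maf1 on chromatin of Saccharomyces cerevisiae before treatment and at 30 and 120 min of rapamycin at 0.2 ng/ul. All cultures carried a myc-tagged Maf1 and grew in the rich medium YPD to an optical density of 0.6. Chromatin was depleted of Maf1 with antibodies to the tag, and DNA left in the depleted chromatin, labelled with Cy5, was hybridized together with DNA of input chromatin, labelled with Cy3. Each condition has 1 deposited column, which per the labels is a mean of 3 replicate arrays, so no spread between arrays is known, no test between conditions was possible and no p-value is given. Higher and lower below stand for the sign of a difference and for no test.

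Values are centred scores, the deposited score minus the median of its column over all features, in score units. Where 3 scores stand together they are those of untreated cells, 30 min and 120 min, in that order. The log base and the fraction on top of the ratio are not given in the labels, so a higher score is not read as more or less Maf1, and with the sign turned every higher score reads as a lower one. The median absolute deviation of a column, scaled to an SD, was 0.388 before treatment, 0.442 at 30 min and 0.512 at 120 min, and a limit of 3 such robust SDs marks features far from the column median. A feature name places a value near a gene and does not resolve which bases hybridized. Gene copies within a tRNA family are near-identical, so cross-hybridization between their features cannot be told apart from a shared level.

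RNA polymerase III (Pol III) transcribes tRNA genes from a promoter that lies inside the gene, where the assembly factor TFIIIC binds an A box and a B box and recruits TFIIIB, which in turn brings the polymerase. In the genes described here an intron follows the anticodon and lies between both boxes. It is cut out of the precursor by the splicing endonuclease, the pieces are joined by the ligase Trl1, and the phosphotransferase Tpt1 removes the leftover phosphate. Maf1 is the general repressor of Pol III: it is phosphorylated in growing cells, loses phosphate when the TOR kinase is inhibited by rapamycin, and then binds the polymerase.

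The features of intron-containing families had high scores in every condition, and on the deposited scale the highest after 120 min. The lowest, median and highest of the 56 were -0.70, 0.76 and 1.52 before treatment. At 30 min they were -0.98, 0.60 and 1.29, and at 120 min -1.31, 1.36 and 2.24. Above the column median lay 54 of 56 features before treatment, 52 at 30 min and 54 at 120 min, where 50% of all features do so by construction. The families thus stood in the upper part of each column, with few features in the lower part.

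Above the limit of 3 robust SDs lay 9 of 56 features in untreated cells, against 1.27% of all features. After 30 min 0 of 56 did so, against 0.111% of all features, and after 120 min 20 of 56, against 4.24% of all features. Below the negative limit lay 0 of 56 in each condition, against 1.19%, 0.7% and 1.67% of all features in order of time. With 1 fixed limit for all columns, that of untreated cells, the counts were 9, 2 and 40, against 0.223% of all features at 30 min and 6.59% at 120 min. After quantile normalization, which gives the columns 1 distribution, they were 9, 8 and 7, against 1.37% of all features at both times in rapamycin. The counts at 30 and 120 min, and the order between them, thus depend on how far the shape of each column is allowed for. With the limit of each column, 8 of the 56 features lay above it both in untreated cells and after 120 min, against 1% of all features, and 12 after 120 min but not in untreated cells, against 3.23%. The single feature above it in untreated cells but not after 120 min, where 0.271% of all features lay, was tL(CAA)G2.

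**Figure D1:**
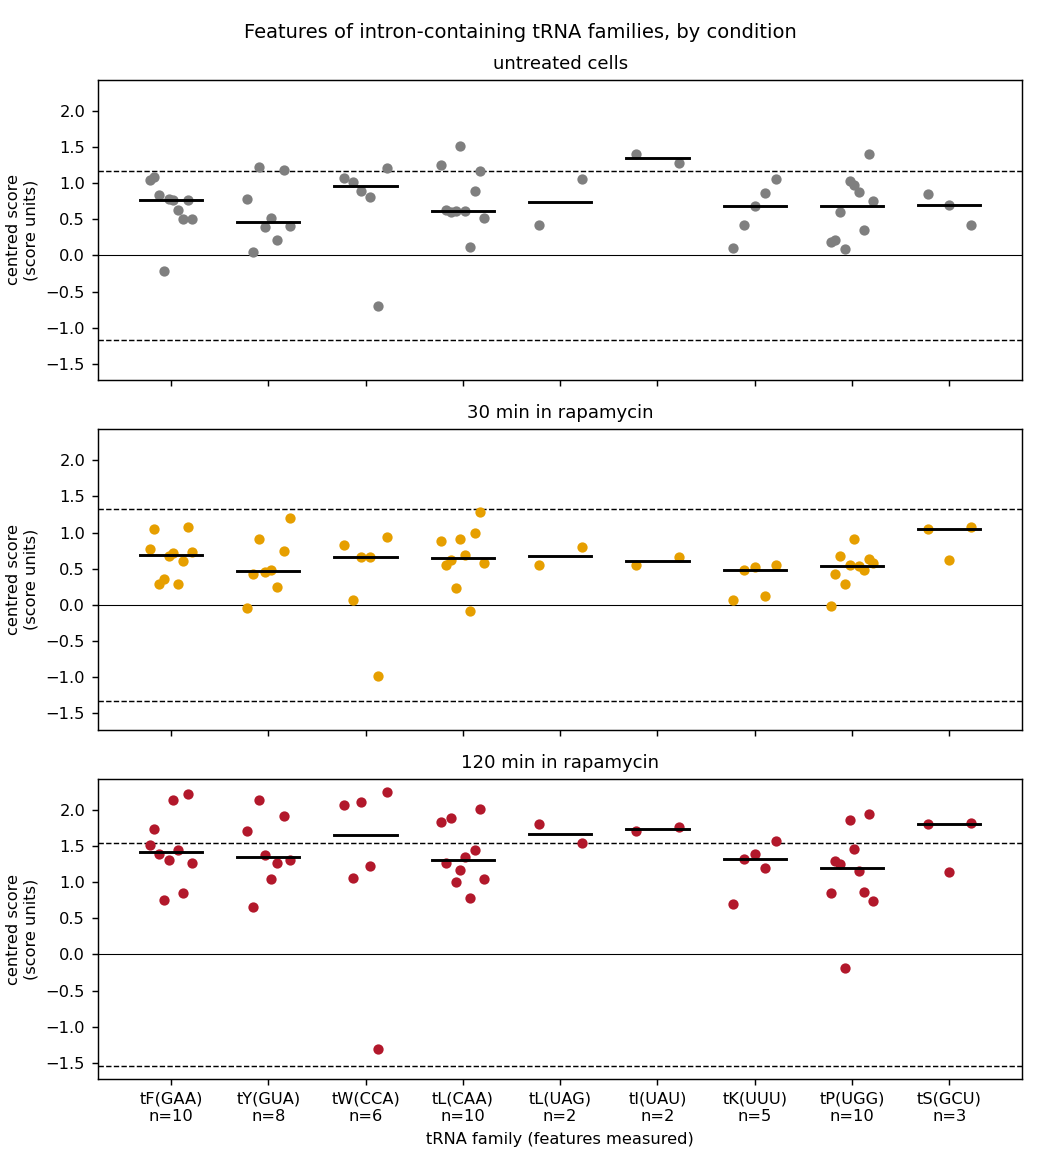
Centred score (vertical axis, score units) of each feature of the 9 measured intron-containing tRNA families, 1 point per feature, before and at 30 and 120 min of rapamycin. Black bars are family medians and dashed lines the limit of 3 robust SDs of the column. Most points lie above 0 in each panel, and 20 of 56 lie above the upper limit after 120 min.

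The phenylalanine family tF(GAA) supplies the tRNA of phenylalanine codons, which receives the wybutosine modification beside its anticodon. Its medians were 0.76 before treatment, 0.69 at 30 min and 1.42 at 120 min. The copy tF(GAA)P1 had 0.76, 1.08 and 2.21 in the same order, and tF(GAA)H2 had 0.76, 0.72 and 2.14. These were the highest copies of the family after 120 min, although both stood close to its median in untreated cells. The copy tF(GAA)D had 1.08, 1.04 and 1.73, and tF(GAA)B had 1.04, 0.77 and 1.52. The copy tF(GAA)G was the exception before treatment, with -0.22, 0.36 and 0.75, and was the only phenylalanine feature below the column median in any condition. After 30 min the family ran from 0.28 to 1.08. The feature tF(GAA)F had 0.84, 0.28 and 1.39 over the conditions and tF(GAA)M had 0.63, 0.29 and 1.44. Both had their lowest score after 30 min, while tF(GAA)H1 stayed close to its start at that time, with 0.77, 0.67 and 1.31. The copies tF(GAA)N, with 0.51, 0.61 and 0.84, and tF(GAA)P2, with 0.51, 0.73 and 1.26, were higher at each later time.

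The tyrosine family tY(GUA) includes genes in which nonsense suppressor mutations are classically found. It had the lowest family median in untreated cells, 0.46, and stood at 0.47 at 30 min and 1.35 at 120 min. The copies tY(GUA)F2, with 1.22, 0.91 and 2.13, and tY(GUA)M2, with 1.18, 0.74 and 1.92, were high throughout. Opposite courses at 30 min were seen in tY(GUA)D, with 0.78, -0.04 and 1.71, and tY(GUA)O, with 0.41, 1.20 and 1.31. The copy tY(GUA)F1, with 0.04, 0.43 and 0.66, was the lowest tyrosine feature in untreated cells and after 120 min. Between these extremes lay tY(GUA)J1 with 0.40, 0.45 and 1.38, tY(GUA)J2 with 0.51, 0.49 and 1.04 and tY(GUA)M1 with 0.21, 0.24 and 1.26. Despite the mixed courses at 30 min, all 8 features had higher scores at 120 min than before treatment, by 0.53 to 1.04.

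The tryptophan family tW(CCA) serves the single codon of tryptophan. Its medians were 0.95 before treatment, 0.66 at 30 min and 1.64 at 120 min, over 6 features that name 5 genes. The copy tW(CCA)M had 1.21, 0.94 and 2.24, the last of these the highest score of all 56 features. The copies tW(CCA)G1 and tW(CCA)J were close to it, with 1.07, 0.83 and 2.06 and 0.89, 0.67 and 2.11. The copy tW(CCA)G2 began as high, at 1.02, stood at 0.07 after 30 min and at 1.05 after 120 min, the lowest change at 30 min among the 56 features. Every tryptophan feature was lower at 30 min than before treatment, with changes from -0.95 to -0.16.

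The gene tW(CCA)K is covered by a pair of numbered features that went apart. The feature numbered 0 had 0.81, 0.66 and 1.23, while the feature numbered 1 had -0.70, -0.98 and -1.31, the lowest value of the 56 in each condition and the 1 member with a lower score at each later time. The gene tP(UGG)L is also covered by a pair, with 0.59, 0.68 and 1.25 for the feature numbered 0 and 0.09, 0.29 and -0.19 for the feature numbered 1. In both genes the feature numbered 1 was lower than its partner in all conditions, with differences of -2.53 in tW(CCA)K and -1.44 in tP(UGG)L after 120 min. The labels do not say which of the paired features holds the tRNA sequence. Without these 4 features all 52 others lay above the column median after 120 min.

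The leucine family tL(CAA) reads a UUG codon, and its intron is needed for methylation of the anticodon by Ncl1, also called Trm4. Its medians were 0.62, 0.65 and 1.30. The copy tL(CAA)G2 had 1.52, 0.90 and 1.17. It was the highest of the 56 features in untreated cells and the only tL(CAA) feature with a lower score after 120 min than in untreated cells. High scores were also found at tL(CAA)A with 1.25, 0.88 and 1.83, and at tL(CAA)M with 1.17, 1.29 and 2.01, of which the second was the highest of the 56 after 30 min. The lowest copy was tL(CAA)K, with 0.11, -0.09 and 0.78. The largest increase to 120 min in the family was that of tL(CAA)D, with 0.60, 0.62 and 1.88. The copies tL(CAA)C, tL(CAA)G1 and tL(CAA)G3 began together, at 0.62, 0.61 and 0.61, and tL(CAA)G1 alone of them moved away, to 0.23 after 30 min against 0.55 and 0.69 for the others. The copies tL(CAA)L and tL(CAA)N had 0.89, 0.99 and 1.45 and 0.52, 0.58 and 1.04, little changed at 30 min.

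The other leucine family with introns, tL(UAG), reads leucine codons that begin with CU and had 2 features. The feature tL(UAG)J had 0.41, 0.55 and 1.80, and tL(UAG)L1 had 1.05, 0.80 and 1.53. They started 0.64 apart and ended 0.26 apart, with tL(UAG)J the lower at first and the higher after 120 min.

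The minor isoleucine family tI(UAU) reads the AUA codon, and its precursor is pseudouridylated by Pus1 in an intron-dependent way. Both features ran side by side. The feature tI(UAU)D had 1.40, 0.55 and 1.71, and tI(UAU)L had 1.28, 0.67 and 1.76. This family had the highest median in untreated cells, 1.34, the lowest change at 30 min, -0.73, and the lowest at 120 min, 0.39. Its scores were not apart from the other families in untreated cells, where tL(CAA)G2 at 1.52 and tP(UGG)O2 at 1.41 were higher. After 30 min the median of tI(UAU), 0.61, lay among the other family medians, which ran from 0.47 in tY(GUA) to 1.05 in tS(GCU).

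The lysine family tK(UUU) carries a thiolated wobble uridine and reads AAA codons. Its medians were 0.68, 0.48 and 1.32. The copy tK(UUU)O had 1.05, 0.55 and 1.57, the highest lysine score in each condition, and tK(UUU)D had 0.10, 0.06 and 0.69, the lowest in each. Between them lay tK(UUU)G1 with 0.42, 0.48 and 1.32, tK(UUU)K with 0.68, 0.52 and 1.39 and tK(UUU)L with 0.86, 0.13 and 1.20. At 30 min tK(UUU)L and tK(UUU)O were the lysine features that moved most, by -0.73 and -0.51, and tK(UUU)G1 was the 1 lysine feature with a higher score than in untreated cells.

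The proline family tP(UGG) had the lowest family median after 120 min, 1.20, after 0.68 in untreated cells and 0.54 after 30 min. The copies on chromosome XV differed among themselves: tP(UGG)O2 had 1.41, 0.64 and 1.94, tP(UGG)O1 had 0.35, 0.48 and 0.87 and tP(UGG)O3 had 0.76, 0.59 and 0.73. Only tP(UGG)O2 of these lay above the limit, in untreated cells and after 120 min, and tP(UGG)O3 changed by -0.02 to 120 min. On chromosome XIV, tP(UGG)N1 had 0.97, 0.91 and 1.46 and tP(UGG)N2 had 0.87, 0.53 and 1.15. The copy tP(UGG)M, with 1.02, 0.56 and 1.85, followed the high course of tP(UGG)O2. The copies tP(UGG)A and tP(UGG)F began low and close together, with 0.18, -0.02 and 0.84 and 0.21, 0.42 and 1.29, and tP(UGG)F had the largest increase to 120 min of the family, 1.08.

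The serine family tS(GCU) reads AGC and AGU codons. Its features were tS(GCU)F with 0.85, 1.05 and 1.81, tS(GCU)O with 0.42, 1.08 and 1.82 and tS(GCU)L with 0.70, 0.62 and 1.14. It had the highest family median after 30 min, 1.05, and the highest family change at 30 min, 0.20. After 120 min its median was 1.81, the highest with every feature counted singly. With paired features averaged per gene tW(CCA) was higher, at 2.06, and without paired features it stood at 2.08. Centred by chromosome, tI(UAU) at 1.80 and tW(CCA) at 1.73 were above tS(GCU) at 1.66. The copies tS(GCU)F and tS(GCU)O differed by 0.43 in untreated cells and by 0.01 after 120 min.

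**Figure D2:**
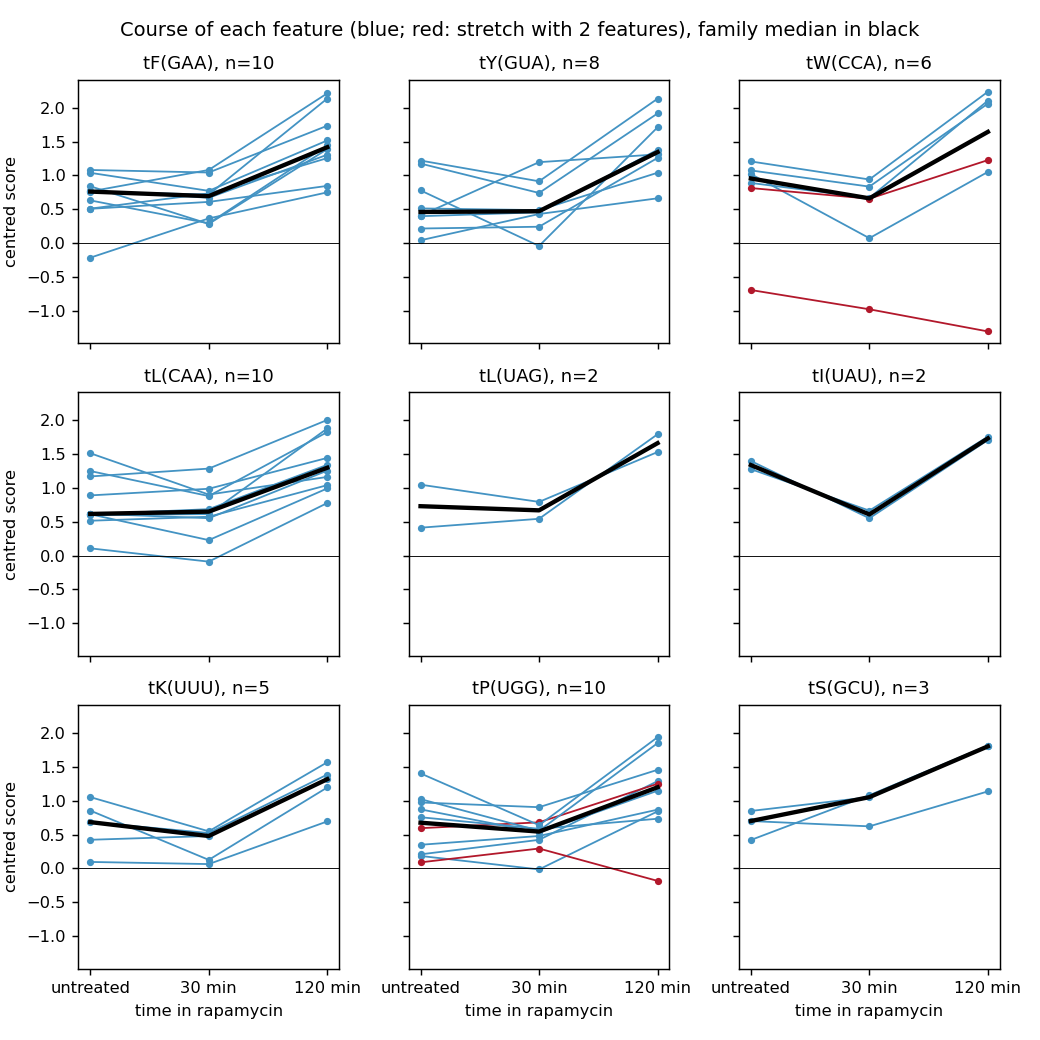
Course of each feature over the 3 conditions, 1 panel per family, with the centred score on the vertical axis in score units. Thin lines are single features, red where a gene has a pair of numbered features, and thick black lines are family medians; with every feature counted singly the medians after 120 min run from 1.20 in tP(UGG) to 1.81 in tS(GCU), and with paired features averaged per gene the highest is tW(CCA) at 2.06.

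With paired features counted singly, the features of a family were spread about as widely as the whole set. The SD within families was 0.44 before treatment, 0.38 at 30 min and 0.62 at 120 min, and the SD over all 56 features was 0.43, 0.38 and 0.60. Differences between the 9 family means held 10.5%, 14.0% and 7.65% of the variance of the scores. For the changes at 30 min, at 120 min and between them they held 24.7%, 15.6% and 8.70%. Means of so few features hold part of the variance by grouping alone, and that part was not computed. At 120 min the SD of tW(CCA) was 1.34, with its paired feature tW(CCA)K-1 at -1.31. In the other families the SD ran from 0.04 in tI(UAU) to 0.61 in tP(UGG). The SDs within families and the shares of variance thus rest in part on paired features, and neither was computed without them. Across the 56 features, scores in untreated cells and after 120 min were correlated with Pearson's r = 0.72 and Spearman's rho = 0.65. Without the 4 features of paired stretches r was 0.62 over 52 features. The points share their array spots and family sequence, and over all features r was 0.59.

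After 30 min of rapamycin the members had lower scores than in untreated cells in 35 of 56 cases, with a median change of -0.09 between a lowest of -0.95 and a highest of 0.79. Of all features 49.5% were higher after 30 min, against 37.5% of the members. All features of tW(CCA) and tI(UAU) were lower, and 4 of 10 features of tF(GAA), 4 of 8 of tY(GUA), 5 of 10 of tL(CAA), 1 of 2 of tL(UAG), 1 of 5 of tK(UUU), 4 of 10 of tP(UGG) and 2 of 3 of tS(GCU) were higher. The lowest changes were -0.95 at tW(CCA)G2, -0.85 at tI(UAU)D, -0.82 at tY(GUA)D, -0.77 at tP(UGG)O2 and -0.73 at tK(UUU)L. The highest were 0.79 at tY(GUA)O, 0.66 at tS(GCU)O, 0.58 at tF(GAA)G, 0.39 at tY(GUA)F1 and 0.32 at tF(GAA)P1. No member passed 3 robust SDs of this change in either direction, against 1.66% of all features above and 1.69% below. After quantile normalization 1 member lay above it, against 2.13% of all features. The median change was -0.03 without centring and -0.17 when the columns were scaled to equal spread.

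After 120 min 52 of 56 members had higher scores than in untreated cells, with a median change of 0.65. Of all features 56.1% were higher. Each of the 9 family medians was above 0, from 0.39 in tI(UAU) to 0.96 in tS(GCU), with tW(CCA) at 0.99 where paired features were averaged per gene, and in 6 families every feature was higher. The 4 members with lower scores were tW(CCA)K-1 at -0.61, tL(CAA)G2 at -0.35, tP(UGG)L-1 at -0.27 and tP(UGG)O3 at -0.02. Past 3 robust SDs of this change lay 4 of 56, against 1.18% of all features, and 0 of 56 lay past it on the lower side, against 1.99%. The 4 were tF(GAA)P1 at 1.45, tS(GCU)O at 1.40, tL(UAG)J at 1.38 and tF(GAA)H2 at 1.38. The next was 1.28 at tL(CAA)D. None of the 56 passed the limit when the columns were scaled to equal spread, against 1.16% of all features, or after quantile normalization, against 1.23%. Members lay on 14 chromosomes, and the median change was above 0 on all 14, from 0.41 on chromosome XIV to 1.10 on chromosomes X and XVI.

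The size of this difference depends on how the columns are scaled. When the columns were scaled to equal spread the median change was 0.34, with 49 of 56 members above 0, against 56.7% of all features, and that of tI(UAU) turned to -0.03. After quantile normalization it was 0.11, with 32 of 56 members above 0, against 52.8% of all features. Quantile normalization left the family median change at -0.38 in tI(UAU), -0.10 in tP(UGG) and -0.02 in tW(CCA). The rank of a feature within its column is free of such scaling. The median member stood at percentile 94.7 of the column before treatment, 92.4 at 30 min and 94.7 at 120 min, and 24 of 56 members had a lower percentile after 120 min than in untreated cells, against 47.2% of all features. In the highest 10% of the column lay 37 of 56 members before treatment, 36 at 30 min and 49 at 120 min, where 10% of all features lie. Below percentile 75 lay 9, 10 and 2 members in order of time, where 75% of all features lie. Of the 9 in untreated cells, 7 had a higher percentile after 120 min, and the 2 with a lower one were tW(CCA)K-1 and tP(UGG)L-1. The 9 were picked by a low percentile in untreated cells, and features so picked tend to rank higher in another column. How many of all features below percentile 75 did so was not counted.

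Single genes show both kinds of course. The feature tF(GAA)G stood at percentile 29.3 before treatment, 80.9 at 30 min and 88.5 at 120 min, and tL(CAA)K at 62.0, 42.3 and 89.1. The feature tL(CAA)G2 stood at 99.9, 98.4 and 93.4, and tI(UAU)D at 99.7, 91.0 and 96.9. The first pair started low among the members and ended higher in rank, and the other pair started near the top and ended lower. Features that start near an end of a column tend to move inward in another, so no effect of rapamycin is read from these courses.

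Between 30 and 120 min, 54 of 56 members had higher scores at the later time, with a median of 0.76, where 56.9% of all features were higher. The exceptions were tP(UGG)L-1 at -0.48 and tW(CCA)K-1 at -0.33. The largest differences were 1.76 at tY(GUA)D, 1.44 at tW(CCA)J, 1.42 at tF(GAA)H2, and 1.30 at both tP(UGG)O2 and tW(CCA)M. Past 3 robust SDs lay 6 of 56, against 2.02% of all features, and 0 of 56 on the lower side, against 2.17%. The 6 became 3 without centring, against 1.66% of all features, 2 with equal spread, against 1.48%, and 1 after quantile normalization, against 1.15%. The median was 0.20 after quantile normalization. This difference shares the 120 min column with the change from untreated cells and is not independent of it. Over all 3 conditions, on the centred scale, 32 of 56 members were lowest at 30 min and highest at 120 min, against 21.6% of all features, and 20 were higher at each later time, against 21.9% of all features. Of the 189 other tRNA-named features 122 had the first course, or 64.6%, and 57 the second, or 30.2%.

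Set against the other tRNA-named features, the intron-containing families had like centred scores in untreated cells and after 30 min. The medians were 0.76 for the 56 members and 0.76 for the 189 other tRNA-named features in untreated cells, with a difference of -0.0007, and 0.60 and 0.63 after 30 min. After 120 min they were 1.36 and 1.54, a difference of -0.18. After quantile normalization the differences were -0.08 at 30 min and -0.10 at 120 min, close to each other. With equal spread they were -0.03 and -0.14, so the contrast between the times depends on the scaling. Above the limit after 120 min lay 35.7% of members and 50.8% of the others, against 4.24% of all features. In untreated cells 16.1% and 13.2% did so, against 1.27% of all features. The limit after 120 min, 1.54, lay close to the median of the others, so the gap between these shares depends on where the limit falls. Shares of the others were not counted at another limit or scaling. The median change from untreated cells to 120 min was 0.65 in members and 0.76 in the others. Higher than in untreated cells at 30 min were 37.5% of members and 32.3% of the others, and at 120 min 92.9% and 96.3%. No replicate is at hand to test these differences, and gene copies are not replicates of a condition.

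**Figure D3:**
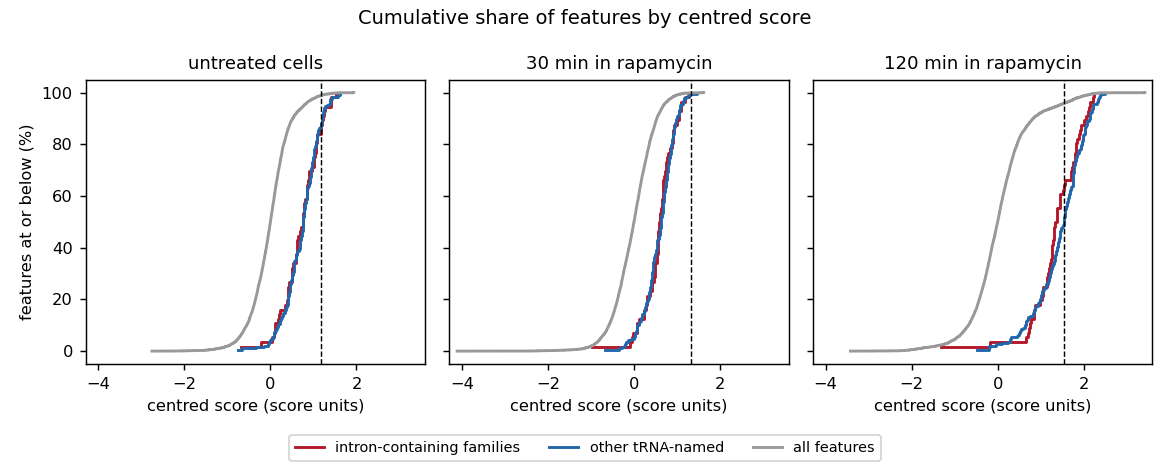
Cumulative share of features (vertical axis, percent) at or below each centred score (horizontal axis, score units) for the 56 features of intron-containing families, the 189 other tRNA-named features and all features, in each condition. The dashed line is the limit of 3 robust SDs, with 35.7% of members, 50.8% of other tRNA-named features and 4.24% of all features above it after 120 min.

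A closer comparison is within an amino acid. Leucine, isoleucine, lysine, proline and serine are each served by families of both kinds, with 32 members and 47 intronless features in all, a comparison chosen after the values had been seen. After 120 min the medians over these were 1.33 in members and 1.34 in intronless families. Above the limit lay 11 of 32 members and 15 of 47 intronless features, against 4.24% of all features. The difference of these medians was -0.01, smaller than that over all tRNA-named features. The median change at 120 min was 0.57 in members and 0.67 in intronless families, and at 30 min -0.07 and -0.21.

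Single amino acids went different ways. For isoleucine, tI(UAU) had a median of 1.34 in untreated cells, above each of the 11 features of intronless tI(AAU), whose median was 0.72 and highest 0.95. After 30 min the medians were 0.61 and 0.60. After 120 min tI(UAU) stood at 1.74 and tI(AAU) at 1.28, with a highest tI(AAU) feature at 2.35. The 2 tI(UAU) features thus lay above all tI(AAU) features in untreated cells and within their range at both times in rapamycin. In untreated cells tI(UAU)D and tI(UAU)L stood at percentiles 99.7 and 99.4. Features so near an end of a column tend to move inward in another, so no effect of rapamycin is read from this contrast. How often 2 features of another family would lie apart in this way was not counted.

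For serine, tS(GCU) stood at 0.70, 1.05 and 1.81, and the 13 features of intronless serine families at 0.77, 0.62 and 1.26. For leucine, the 12 members stood at 0.62, 0.65 and 1.40, and the 7 intronless features at 0.73, 0.44 and 1.503. Lysine medians lay close together, with 0.68, 0.48 and 1.32 in tK(UUU) against 0.67, 0.46 and 1.37 in tK(CUU). Proline members had lower medians than the 2 features of tP(AGG) in each condition, with 0.68, 0.54 and 1.20 against 0.88, 0.70 and 1.46. The ranges of the 2 kinds overlapped for leucine, lysine, proline and serine in every condition.

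**Figure D4:**
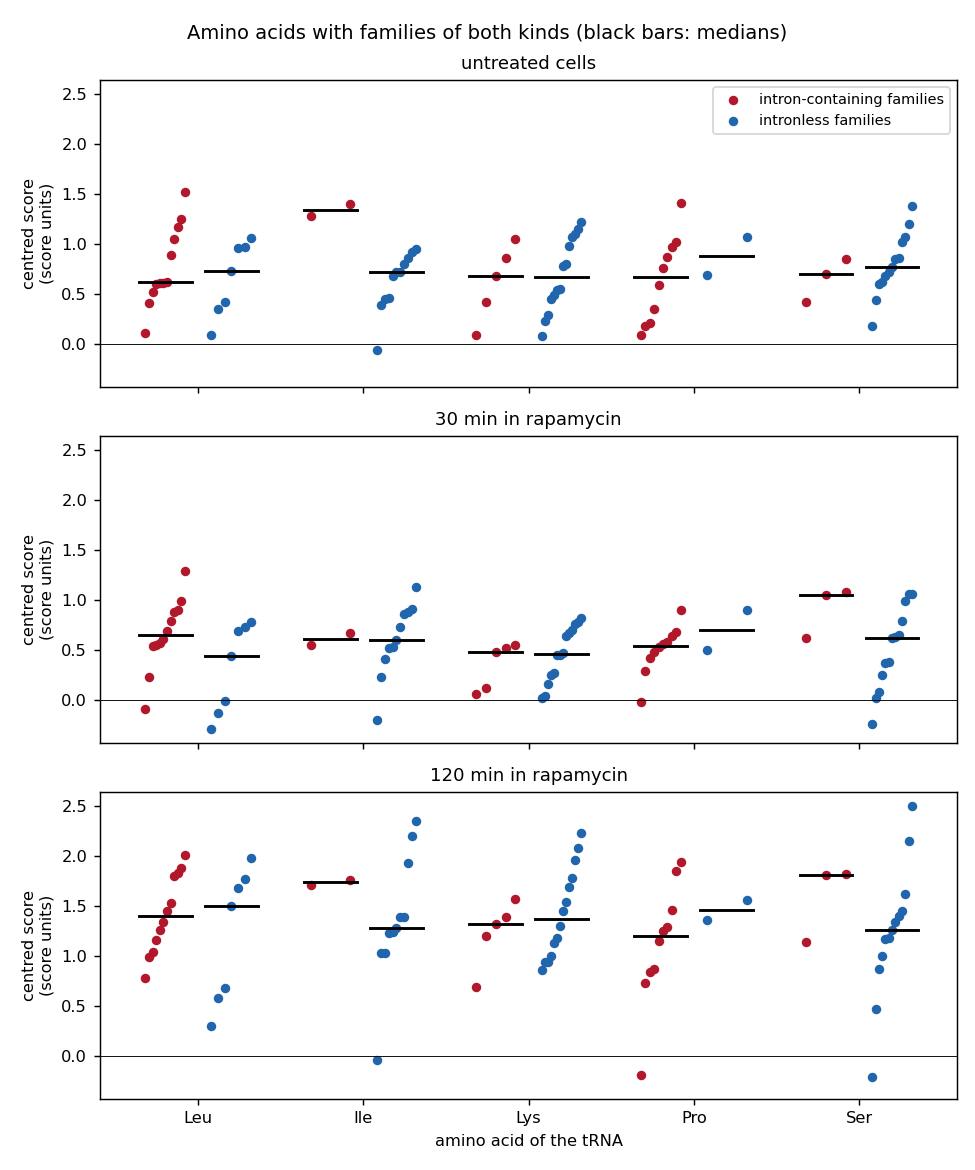
Centred score (vertical axis, score units) of features of intron-containing families (red, left) and intronless families (blue, right) of the same amino acid, in each condition; points are features and black bars medians. The 2 tI(UAU) features lie above all tI(AAU) features in untreated cells and within their range at both times in rapamycin.

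Genes whose products splice, modify, export or charge these tRNAs are transcribed by RNA polymerase II, and most of their features had lower scores at 30 min than before treatment, while at 120 min they went both ways. Of 20 genes listed, 18 matched a feature by the name of their open reading frame, and SEN15 and TRL1 matched 0. The feature lies beside the reading frame, on a side that the labels do not state. The median over the 18 was 0.12 before treatment, -0.06 at 30 min and 0.14 at 120 min, and 11 of 18 were higher at 120 min than before treatment, against 56.1% of all features. At 30 min 3 of 18 were higher and 15 lower, where 49.5% of all features were higher.

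The lowest changes at 120 min were -2.03 at PUS1, the pseudouridine synthase gene, and -1.93 at TYW1, of wybutosine synthesis. PUS1 had 0.11, -0.02 and -1.92 over the conditions, and TYW1 0.12, -0.23 and -1.81. SEN2, a catalytic subunit of the splicing endonuclease, had -0.50, -1.02 and -1.63. These 3 were the list's features below the negative limit after 120 min, against 1.67% of all features. The other endonuclease features, SEN34 and SEN54, had -0.02, 0.14 and 0.09, and 0.33, 0.20 and 0.37.

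The highest change at 120 min was 0.90 at YHR020W, the prolyl-tRNA synthetase gene, which had 0.81, 0.53 and 1.71 and was the list's only feature of 18 above the limit after 120 min, against 4.24% of all features. In the reference gene order its next gene at higher coordinates is a tRNA gene, and SES1, the seryl-tRNA synthetase gene with 0.16, 0.16 and 0.18, has one on its lower side. The 16 other genes have no tRNA gene next to them. Whether a neighbouring tRNA gene bears on these scores was not tested. ILS1, the isoleucyl-tRNA synthetase gene, followed with a change of 0.44. At 30 min the lowest changes were -0.53 at MSN5 and -0.52 at SEN2, and the highest 0.16 at SEN34 and 0.04 at ILS1. From 30 to 120 min the lowest were -1.90 at PUS1 and -1.58 at TYW1, and the highest 1.17 at YHR020W and 0.72 at MSN5, which encodes a nuclear exporter.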

How the data were processed

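The table holds 1 value per array feature and condition, and the authors deposited scores, numbers without a fixed range, that per the labels are means of 3 replicate arrays after normalization to a gene list. Scale, log base, direction of the ratio, background correction and array build were not given in the sources used here. The number of columns of values not mapped to a sample was 0. The design assumed a log-like ratio, and the deposited score was used as it stands.

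Each column was centred on its median and differences were taken per feature with Python 3.11.15, numpy 2.4.6 and pandas 2.3.3. The limit is 3 times 1.4826 times the median absolute deviation of the column or change. Percentiles are ranks within a column. The arithmetic was checked on shuffled columns with known shifts added to some features, which came back as they were put in. That check bears on the code only and not on the limits or the scaling. Members were taken by the name rule alone, but that rule and the lists were set with earlier results of these data known. Named features are the lowest and highest of each family, all features of families with 5 or fewer, the 5 lowest and highest members of each measure, paired stretches that diverge, and in the list of processing genes the 2 lowest and 2 highest changes, and others were added to complete the families. Gene symbols and gene order came from a RefSeq table of assembly R64, which names tRNA genes by another system, so no coordinates or neighbours of members are given. Alternatives were no centring, equal spread, quantile normalization, centring by chromosome, tiles averaged or left out, and other limits.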

Additional observations from a re-analysis of the deposited data

How the results depend on the processing

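Averaged columns give no spread between arrays, so the alternatives show only the effect of scaling and of the features counted, and array signal over background was not available here. Of the medians and counts over all members, averaging tiles moved 0 by over 1.5 times. With 2 robust SDs as the limit, 25, 11 and 45 members lay above it in untreated cells, at 30 and at 120 min. For the changes at 30 min, at 120 min and between them the counts were 2, 17 and 26. The share of all features past 2 robust SDs was not counted, so these counts have no baseline. With 1 fixed limit the counts at 30 and 120 min were 2 and 40. Without centring the 30 min median change was -0.03085, 1 member lay above the limit at 30 min and 3 past that of the change from 30 to 120 min, and the 30 min change turned to 0.0219 in tF(GAA) and 0.03435 in tL(CAA). With equal spread the median changes at 30 and 120 min were -0.173 and 0.341, counts past the limit were 0 for the 120 min change and 2 from 30 to 120 min, and members minus other tRNA-named features came to 0.0251 and -0.0620 for these changes. The change turned to -0.0436 in tY(GUA) at 30 min and -0.0253 in tI(UAU) at 120 min. After quantile normalization the median change was 0.111 at 120 min, with 32 members above 0, and 0.197 from 30 to 120 min. Counts above the limit were 8 at 30 min and 7 at 120 min, and 1, 0 and 1 for the changes. Members minus others came to -0.0818 at 30 min and -0.102 at 120 min, and to 0.00713, -0.0150 and -0.0253 for the changes. Family changes turned at 30 min to 0.118 in tF(GAA), -0.0387 in tY(GUA) and 0.0205 in tL(UAG), at 120 min to -0.0185 in tW(CCA), -0.383 in tI(UAU) and -0.0978 in tP(UGG), and from 30 to 120 min to -0.265 in tS(GCU). Centred by chromosome, members minus others came to -0.0344 in untreated cells, -0.0713 at 30 min and 0.0309 for the 30 min change, 2 members lay above the limit at 30 min, and the 30 min change turned to -0.00403 in tY(GUA) and 0.00838 in tL(CAA). For the 30 min counts above the limit without centring and by chromosome, the share of all features was not counted. Without tiles members minus others were 0.00145 in untreated cells and -0.0538 from 30 to 120 min. The cause was not tested. The comparison with tRNA-named features away from other tRNA genes was not run, because the gene table names tRNA genes by another system. No paired analysis was possible because each condition has 1 column.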

Other observations

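Among all tRNA genes on the array that are covered by a pair of numbered features with values, the feature numbered 1 was lower than the feature numbered 0 in every condition in 5 of 6. The exception was tS(UGA)E, a serine tRNA gene of a family without introns, with 0.85, 0.02 and -0.21 for the feature numbered 1 and 0.72, -0.24 and 0.47 for the feature numbered 0. The feature of MAF1 stood at -0.37 before treatment, 0.33 at 30 min and 0.03 at 120 min.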
